A study of Homo sapiens with 18 samples.

Results

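The control xenograft tumours of the human neuroblastoma lines SKNAS and KELLY were compared, that is, the 3 libraries titled SKNAS_Control against the 3 titled KELLY_Control, 6 of the 18 libraries of the series. The libraries were assigned to the groups by their titles. The series measured polyadenylated RNA in bulk tumours that grew in mice from 3 cell lines, each with controls and with a second group that carries the name Hmx1, at 3 libraries apiece. Treatment and strain are given as none for all 6 control libraries, no age of the mice is stated, and a genotype, MYCN-amp, is given only for KELLY replicates 2 and 3. Each group is a single cell line, so what differs between the groups cannot be told apart from what differs between 2 individual tumours of origin. Nothing states that the libraries of a group came from separate mice, so the p-values rest on variation among libraries that might be only technical.

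Neuroblastoma is a childhood tumour of the sympathoadrenal branch of the neural crest, the embryonic cells that also give rise to sympathetic neurons and adrenal chromaffin cells. Its cell lines range between a noradrenergic state, held by a circuit of transcription factors such as HAND2 and GATA3 together with the enzymes of catecholamine synthesis, and a mesenchymal state with matrix genes, AP-1 and YAP/TAZ activity. Amplification of MYCN, a MYC family oncogene, marks a high-risk group to which KELLY belongs, and KELLY is also known for an activating mutation of the receptor ALK. SKNAS lacks MYCN amplification and is known for an activating NRAS mutation.

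Expression was given as TPM, a share of all transcripts corrected for transcript length, divided in each library by a median-ratio scale factor so that the typical gene has the same level, and is called scaled TPM throughout. The difference between the lines is the mean log2(scaled TPM + 1) of SKNAS minus that of KELLY, which understates the change of low genes. Tested with limma were the 16547 genes that reached 1 TPM in 3 or more of the 6 libraries. A gene was called where the Benjamini-Hochberg adjusted p was under 0.05 and the log2 difference was at least 1 in size. By that rule 5727 genes (34.6%) were called, 2936 (17.7%) higher and 2791 (16.9%) lower in SKNAS, and these shares are the background for each count below. The median difference of all tested genes was 0.05. At a size of at least 4 on the log2 scale, 133 genes were higher and 154 lower. The libraries of the lines did not overlap at 10580 genes (63.9%).

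TPM values hold no record of read depth, which is unknown here. From 14470 to 16116 genes reached 1 TPM per library. Pearson's r of the log2 values across genes was 0.979 to 0.983 within SKNAS, 0.959 to 0.976 within KELLY and 0.749 to 0.794 between the lines, and the first principal component, 85.6% of the variance, separated the lines. On the second component, 6.09% of the variance, KELLY replicate 1 lay at -43.2, against 31.9 and 16.3 for the other KELLY libraries. The 50 most abundant genes held 25.1% to 30.5% of TPM in SKNAS libraries, against 50.6%, 30.4% and 42.9% in KELLY libraries. Mitochondrial transcripts took 15.4%, 21.2% and 16.5% of TPM in SKNAS libraries, against 33.8%, 12.9% and 29.7% in KELLY libraries. The line means were 17.7% ± 3.07 in SKNAS and 25.5% ± 11.1 in KELLY (SD, n = 3 each), and 3 libraries against 3 cannot show a difference by an exact two-sided permutation test (p = 0.4, smallest possible 0.1). Without scaling the median difference of all tested genes was 0.62, with 5546 genes higher and 1666 lower, so a difference under about that size depends on the scaling.

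Most of the largest differences were of genes listed at or near 0 in the lower line. MYCN (ENSG00000134323, GRCh37 chr2:16080686-16087129, plus strand), the amplified oncogene, had 0, 0.0750 and 0.0390 scaled TPM in SKNAS libraries, against 1563, 1951 and 1596 in KELLY libraries. The log2 difference was -10.67 ± 0.142 (SE, adjusted p 2.65e-08). MYCN was high in all 3 KELLY libraries, including replicate 1, for which no genotype is given. CARTPT, which encodes the CART neuropeptide precursor, was listed at 0 in all 3 SKNAS libraries, against 967, 980.1 and 1161 in KELLY libraries (adjusted p 2.65e-08). SST, which encodes somatostatin, was also listed at 0 in all 3 SKNAS libraries, against 834, 359.7 and 722 in KELLY libraries (adjusted p 7.96e-07).

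In the other direction, TM4SF4, a membrane protein of the tetraspanin-like L6 family, had 270.3, 218 and 208 scaled TPM in SKNAS libraries and was listed at 0 in all 3 KELLY libraries (adjusted p 3.45e-07). Its paralogue and neighbour on chromosome 3, TM4SF1, had 148, 121.4 and 114.8 in SKNAS libraries and was likewise listed at 0 in KELLY. IFI16, an interferon-inducible sensor of DNA, had 181, 144 and 157 in SKNAS libraries and was listed at 0 in KELLY. NEUROG2, a proneural transcription factor of sensory and central neurons, had 129.9, 136 and 137 in SKNAS libraries, against 0.0966, 0 and 0 in KELLY libraries. The leading genes were chosen for large differences and for no overlap between the lines, so their separation is not a further result.

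The rest of the 12 leading genes higher in SKNAS were the secreted brain protein BRINP3, myocilin (MYOC), the interferon-induced IFITM2, IFITM3 and IFI44, pancreatic polypeptide (PPY), the matrix proteoglycan lumican (LUM) and the membrane protein PLP2, with SKNAS means of 94.9 to 196 scaled TPM. PLP2, on the X chromosome, averaged 196 ± 8.70 in SKNAS and 1.54 ± 0.593 in KELLY (SD, n = 3 each). The rest of those lower in SKNAS were tyrosine hydroxylase (TH), TRIM29, GDAP1L1, thyroglobulin (TG), the cancer-testis antigen MAGEA10, the testis protease PRSS21, the kallikrein protease KLK4, EGFL7 and the serotonergic transcription factor FEV, whose SKNAS means were at most 2.29. EGFL7 had 0.0494, 0.112 and 0 in SKNAS libraries, against 161, 41.4 and 74.4 in KELLY libraries. FEV was listed at 0 in SKNAS, against 138, 39.4 and 60.7 in KELLY libraries. In both, KELLY replicate 1 was the highest library and replicate 2 the lowest of that line.

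**Figure D1:**
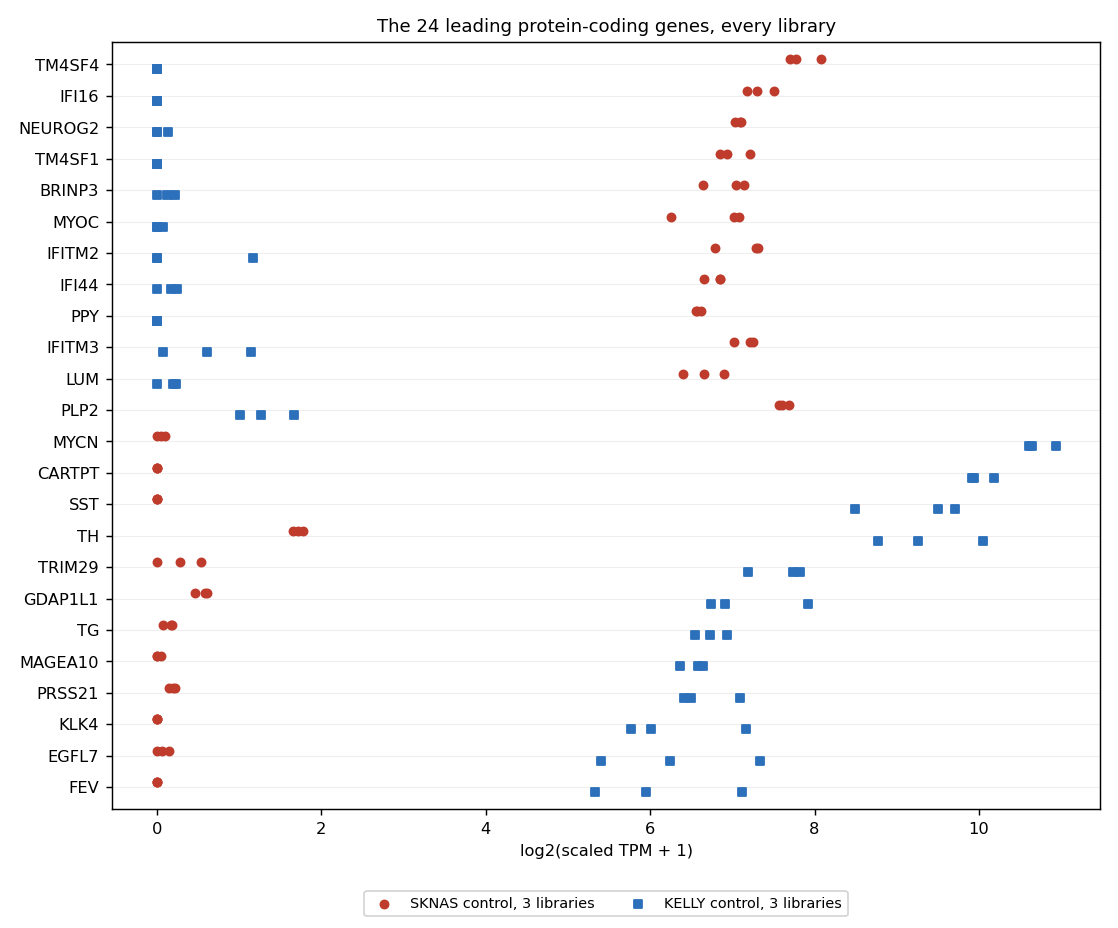
Level of the 12 protein-coding genes with the largest positive and the 12 with the largest negative difference, as log2(scaled TPM + 1) on the horizontal axis, with 1 point per library (red circles SKNAS control, blue squares KELLY control). The genes were chosen for no overlap between the lines, so the 3 SKNAS and the 3 KELLY libraries are separate in every row. The low line lies below 2 on the axis.

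Noradrenergic transcription factors were more often lower than higher in SKNAS. Of 21 tested, 10 were lower, 3 higher and 8 not called, with a median difference of -0.99, against 0.05 for all tested genes. Without KELLY replicate 1 the counts were 11 lower and 3 higher, and without scaling 10 lower and 5 higher. GATA2, a zinc finger factor of the sympathetic circuit, had 4.89, 4.84 and 5.22 scaled TPM in SKNAS libraries, against 319, 294 and 290 in KELLY libraries, a log2 difference of -5.66 ± 0.125 (SE, adjusted p 3.45e-07). Each line's libraries lay close together and far from the other line's. PHOX2A, a homeobox activator of noradrenergic genes, had 24.7, 26.7 and 29.2 in SKNAS libraries, against 278, 236 and 179 in KELLY libraries (-3.04 ± 0.183, adjusted p 7.75e-06). GATA3, which is needed for sympathetic neuron survival, had 4.63, 4.53 and 4.82 in SKNAS libraries, against 48.8, 72.4 and 42.7 in KELLY libraries (-3.26 ± 0.212, adjusted p 1.1e-05). Both were several-fold lower in every SKNAS library.

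HEY1 (log2 difference -4.24), SIX3 (-3.62), LMO1 (-3.27), HAND1 (-2.94), ISL1 (-2.20) and TFAP2B (-2.18) were lower as well. LMO1 encodes a transcriptional cofactor and neuroblastoma susceptibility gene, and ISL1 a LIM homeobox factor of sympathetic neurons. INSM1, a zinc finger factor of neuroendocrine cells, went the other way and had 77.3, 89.0 and 77.8 in SKNAS libraries, against 7.23, 4.24 and 9.08 in KELLY libraries (3.44 ± 0.242). INSM1 was several-fold higher in every SKNAS library. HAND2, a basic helix-loop-helix factor of the circuit, averaged 234 ± 14.4 in SKNAS and 373 ± 52.7 in KELLY (SD, n = 3 each), a log2 difference of -0.66 that missed the size needed for a call (adjusted p 0.00736). TBX2 (log2 difference 0.26), SOX11 (-0.11) and KLF13 (-0.13) had overlapping libraries.

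The catecholamine pathway was lower in SKNAS at nearly each step. Of 15 genes tested for synthesis, storage, uptake and breakdown, 11 were lower, none higher and 4 not called, with a median difference of -3.37. Without scaling the count was 9 lower and 1 higher. Synthesis begins with TH, the rate-limiting enzyme, which had 2.44, 2.15 and 2.29 scaled TPM in SKNAS libraries, against 1055, 613 and 437 in KELLY libraries (-7.64 ± 0.293, adjusted p 1.31e-06). DDC, which converts DOPA to dopamine, had 15.1, 22.2 and 14.3 in SKNAS libraries, against 665, 896 and 604 in KELLY libraries (-5.31 ± 0.217). DBH, which makes noradrenaline, had 106, 83.1 and 110.4 in SKNAS libraries, against 1201, 1322 and 976 in KELLY libraries (-3.53 ± 0.182). Of these 3 enzymes TH had the widest gap and DBH the narrowest, an order that was not itself tested, and DBH still averaged 99.8 scaled TPM in SKNAS.

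The vesicular monoamine transporters SLC18A1 and SLC18A2 averaged 0.134 and 0.0177 in SKNAS, against 64.1 and 42.1 in KELLY. The noradrenaline transporter SLC6A2 had 0.697, 1.25 and 0.899 in SKNAS libraries, against 36.5, 38.8 and 31.9 in KELLY libraries (-4.24 ± 0.184). Monoamine oxidase A (MAOA) had 16.6, 12.3 and 13.0 in SKNAS libraries, against 115.4, 261 and 154 in KELLY libraries (-3.50 ± 0.288). Of the vesicle proteins, chromogranin A (CHGA) was lower in SKNAS, 654 ± 138 against 2648 ± 392 in KELLY (SD, n = 3 each), a call lost with quantile normalization. Chromogranin B (CHGB) averaged 343 ± 67.8 in SKNAS and 280.1 ± 104 in KELLY and was not called (adjusted p 0.331). GCH1, which makes the cofactor of TH, and PNMT, which makes adrenaline, were not called either.

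**Figure D2:**
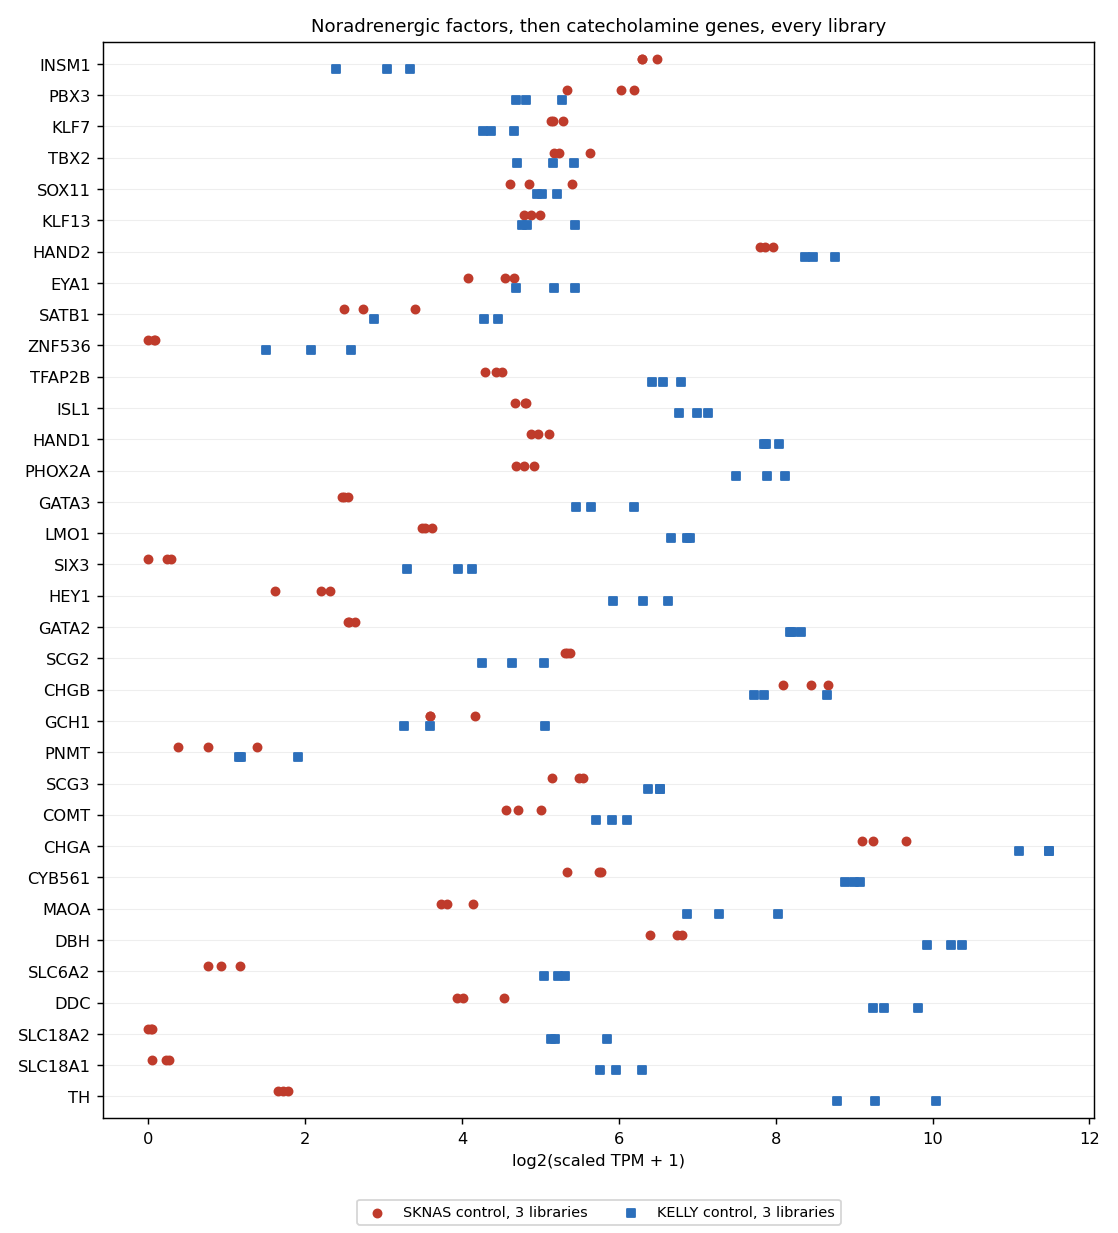
Level of tested noradrenergic transcription factors and of the 15 tested catecholamine genes as log2(scaled TPM + 1), with 1 point per library (red circles SKNAS control, blue squares KELLY control), each set ordered by the difference. INSM1 lies to the right in SKNAS, while TH, GATA2 and the vesicular transporters lie far to the left.

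Neuronal structure and peptide genes differed in both directions. Of 27 neuronal cytoskeleton and synapse genes, 10 were lower, 3 higher and 14 not called (median -0.82), and without scaling 7 were lower and 4 higher. NEFH, the heavy neurofilament subunit, had 1.13, 1.35 and 1.38 scaled TPM in SKNAS libraries, against 142, 147 and 149 in KELLY libraries (-6.01 ± 0.14, adjusted p 3.92e-07). GAP43, a growth cone protein, had 13.3, 9.39 and 11.3 in SKNAS libraries, against 389.9, 484 and 316 in KELLY libraries (-5.00 ± 0.198). The tubulin-binding STMN2 (-3.73) and the neurofilament NEFM (-3.36) were also lower. SYT1, the calcium sensor of synaptic vesicle release, was higher, with 120.5, 110.03 and 121.8 in SKNAS libraries, against 9.70, 16.4 and 14.8 in KELLY libraries (3.04 ± 0.199). DPYSL3 (1.96) and the neuronal RNA-binding protein ELAVL4 (1.04) were higher too, and the ELAVL4 call was lost without KELLY replicate 2.

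The filter on low values left 10 of 14 neuropeptide genes, and of these only GAL, which encodes galanin, was not called. Members near 0 in 1 line, such as CARTPT, SST, NPY and CALCB, passed the filter only through the other line. For these a call was likely from the start, so the count of calls says little about neuropeptides as a group. VIP (57.8, 66.4 and 43.5 in SKNAS libraries, against 2.49, 0.512 and 3.57 in KELLY libraries) and PENK, the enkephalin precursor (89.2, 87.9 and 82.0 in SKNAS libraries, against 11.9, 7.03 and 6.18 in KELLY libraries), were higher in SKNAS. The calcitonin gene-related peptide genes CALCA and CALCB averaged 16.3 and 24.3 in SKNAS, against 0.159 and 0.0322 in KELLY. NPY, the neuropeptide of sympathetic neurons, averaged 0.181 ± 0.313 in SKNAS and 87.3 ± 53.5 in KELLY (SD, n = 3 each). Higher in SKNAS were thus VIP, PENK, TAC1 and the calcitonin genes, and higher in KELLY were CARTPT, SST, NPY and NTS. At a minimum TPM of 5 the counts were 4 higher and 3 lower in SKNAS, and TAC1 and NTS were not tested.

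The mesenchymal transcription factors were split. Of 21 tested, 7 were higher in SKNAS, 4 lower and 10 not called, a share of 33.3% higher, with a median difference of 0.40. Without scaling 10 were higher and 2 lower. SNAI2, a repressor of epithelial genes, had 8.43, 7.93 and 6.49 scaled TPM in SKNAS libraries, against 0.101, 0.483 and 0.180 in KELLY libraries (2.79 ± 0.19, adjusted p 1.41e-05). TBX18, a T-box factor of mesenchyme, had 9.98, 10.4 and 9.60 in SKNAS libraries, against 0.539, 0.828 and 0.821 in KELLY libraries (2.67 ± 0.167). RUNX1 (2.06), the interferon regulatory factor IRF2 (2.27) and the homeobox factor SIX4 (1.16) were also higher. All 5 of these factors, SNAI2 and TBX18 included, had no overlap between the lines, as did 63.9% of all tested genes. The SIX4 call was lost with FPKM and without KELLY replicate 1. PRRX1, a homeobox factor that can impose the mesenchymal state, had 6.93, 7.22 and 6.78 in SKNAS libraries, against 7.88, 5.45 and 8.05 in KELLY libraries, and was not called (adjusted p 0.968). TWIST1, ZEB1 and ZEB2 were not called either. SNAI1 (-1.25), the AP-1 subunit FOSL2 (-1.36), SOX9 (-1.67) and BHLHE41 (-1.78) were lower in SKNAS, the first 2 of which lost the call without scaling. Of the 10 tested AP-1 family genes, which include FOSL2, 2 were lower and none higher, with a median of -0.59 that was 0.01 without scaling. Without scaling none of these was called, and without KELLY replicate 2 the count was 5 lower.

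Matrix and cytoskeletal genes were split as well. Of 21 mesenchymal surface and matrix genes, 7 were higher, 3 lower and 11 not called (median 0.44). LGALS1, galectin-1, had 604, 544 and 445 in SKNAS libraries, against 41.2, 25.6 and 35.7 in KELLY libraries (3.93 ± 0.206, adjusted p 3.91e-06). TIMP1, an inhibitor of matrix metalloproteinases, averaged 169.9 ± 17.6 in SKNAS and 38.4 ± 18.7 in KELLY (SD, n = 3 each). VIM, the intermediate filament vimentin, had 505, 556 and 444 in SKNAS libraries, against 147, 71.7 and 111.8 in KELLY libraries (2.23 ± 0.256). CD44, a hyaluronan receptor used as a mesenchymal surface marker, had 3.56, 3.67 and 2.94 in SKNAS libraries, against 7.51, 17.3 and 7.18 in KELLY libraries (-1.31 ± 0.319) and was lower in SKNAS, a call lost without scaling and without KELLY replicate 2. TPM1 (-2.01) and TGFBI (-1.91) were lower too.

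Of 12 collagen genes, 7 were higher, 1 lower and 4 not called. COL3A1 had 436, 477 and 524 in SKNAS libraries, against 19.9, 9.19 and 15.2 in KELLY libraries (4.99 ± 0.253, adjusted p 3.49e-06), and COL12A1 had 72.3, 66.3 and 102 in SKNAS libraries, against 2.47, 0.486 and 1.78 in KELLY libraries (5.04 ± 0.33). COL5A2 was higher as well (3.32). COL1A1, which pairs with COL1A2 in type I collagen, had 234, 288 and 301 in SKNAS libraries, against 131, 42.2 and 126 in KELLY libraries (1.61 ± 0.405), while COL1A2 overlapped between the lines. COL18A1 was the collagen called lower, and that call was lost in 9 of 17 alternative settings.

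Markers of host fibroblasts, a list that itself holds collagens, were also mostly higher in SKNAS. Mouse fibroblasts, vessels and blood cells enter a xenograft. No source used here tells whether mouse reads were filtered out. Of 12 tested fibroblast markers, 8 were higher in SKNAS and none lower, and their summed level was 983 to 1093 scaled TPM over SKNAS libraries, against 115.3 to 242 over KELLY libraries. The count and the sum both contain COL3A1 and COL1A1, so neither is separate from the collagen result. LUM had 118.4, 100.2 and 83.7 and DCN, decorin, 72.4, 42.9 and 50.1 in SKNAS libraries, while in KELLY libraries they reached at most 0.180 and 0.0880. The fibroblast marker MFAP5 was listed at 0 in all 6 libraries, and PDGFRB and THY1 were not called. Of 3 tested endothelial markers, CDH5 was higher, VWF lower and the third not called, PECAM1 was listed at 0 in all 6 libraries, and erythroid and fat cell lists had no member tested. The part of host cells in the collagen and matrix differences was not tested. In bulk tumours, fewer cells of a type and less RNA per cell cannot be told apart.

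PTPRC, which encodes the leukocyte phosphatase CD45, had 81.4, 63.7 and 74.1 scaled TPM in SKNAS libraries and was listed at 0 in all 3 KELLY libraries (adjusted p 6.42e-07). Of 10 leukocyte and macrophage markers only PTPRC and CD14 passed the filter on low values. CD14 had 0.875, 1.06 and 1.25 in SKNAS libraries, against 0.116, 0 and 0.413 in KELLY libraries, and was not called, although it was called higher in 4 alternative settings. ITGAM and FCGR3A were listed at 0 in all 6 libraries. An exact 0 in these files is not evidence that a transcript was absent, since BOP1, a ribosome biogenesis gene that all cells use, was also listed at 0 in all 6.

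The YAP/TAZ list had 7 of 17 tested members higher in SKNAS, 1 lower and 9 not called (median 0.80). The count of higher members depended on the setting, at 3 with FPKM, 4 with a minimum TPM of 5, 5 without SKNAS replicate 3 and 10 without scaling. WWTR1, the coactivator TAZ, had 17.6, 17.1 and 13.3 scaled TPM in SKNAS libraries, against 0, 0.355 and 1.05 in KELLY libraries (3.59 ± 0.28, adjusted p 2.8e-05). YAP1, its paralogue, had 26.1, 13.0 and 15.2 in SKNAS libraries, against 0.655, 2.07 and 0.483 in KELLY libraries (3.23 ± 0.351). Neither coactivator overlapped between the lines, which was also so for 63.9% of all tested genes. Of their regulators, AMOTL2 (2.76) and the kinase LATS2 (1.44) were higher and VGLL4, a competitor for TEAD binding, was lower (-1.16). The LATS2 call was lost with FPKM and the VGLL4 call without scaling. The textbook target genes CCN1 and CCN2 were not called, with differences of -0.06 and -0.60.

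RAS-ERK feedback and output genes were higher in SKNAS at 9 of 20 tested, lower at 1 and not called at 10, a share of 45.0% higher (median 0.86). Without KELLY replicate 1 the count was 7 higher and 1 lower, and without scaling 15 higher and 1 lower. DUSP4, a phosphatase that inactivates ERK, had 38.5, 39.0 and 40.5 in SKNAS libraries, against 3.81, 3.38 and 5.22 in KELLY libraries (2.99 ± 0.179, adjusted p 7.44e-06). SPRY1, a feedback inhibitor of receptor signalling, had 35.8, 24.1 and 38.0 in SKNAS libraries, against 2.35, 4.18 and 2.76 in KELLY libraries (3.04 ± 0.246). IER3 (3.61) and the ETS factor ETV4 (2.55) were higher as well. CCND1, cyclin D1, was the member called lower, with 3.08, 3.14 and 2.94 in SKNAS libraries, against 87.3, 89.7 and 105 in KELLY libraries (-4.54 ± 0.146). NRAS and HRAS themselves were not called.

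Receptors differed gene by gene. Of 27 tyrosine kinase receptors and GDNF co-receptors, 10 were higher, 6 lower and 11 not called. ALK was listed at 0 in all 3 SKNAS libraries, against 9.84, 13.6 and 13.4 scaled TPM in KELLY libraries (adjusted p 3.05e-06), and the co-receptor GFRA3 was listed at 0 in SKNAS, against 23.1, 23.2 and 20.7 in KELLY libraries. FGFR2 had 0.0209, 0.0227 and 0 in SKNAS libraries, against 20.7, 28.8 and 20.95 in KELLY libraries, whereas FGFR1 had 83.8, 81.3 and 72.2 in SKNAS libraries, against 15.6, 15.7 and 16.5 in KELLY libraries. The 2 FGF receptors therefore differed in opposite directions, by -4.58 ± 0.19 and 2.24 ± 0.131 (SE, n = 3 each). The hepatocyte growth factor receptor MET (-3.67) and the co-receptor GFRA1 (-3.48) were lower, and MERTK (3.55), INSR (2.82), ERBB4 (2.67) and the GDNF receptor RET (1.21) were higher.

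**Figure D3:**
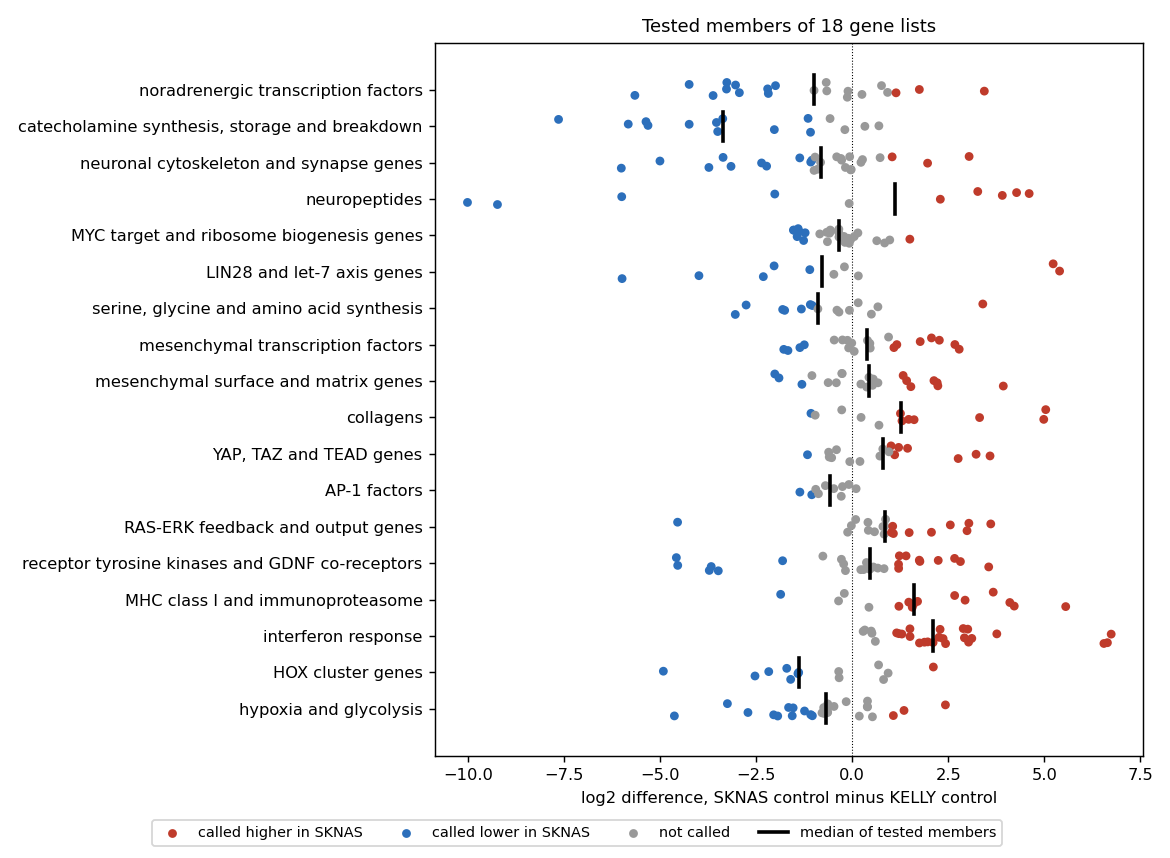
Difference between the lines, SKNAS control minus KELLY control on the log2(scaled TPM + 1) scale, for each tested member of 18 gene lists. Points are genes, coloured by call, and black bars are list medians. The catecholamine list lies furthest left by median, at -3.37, and the interferon list furthest right, at 2.11.

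MYC and MYCN differed in opposite directions. MYC, the founding member of the family, had 19.96, 10.2 and 18.6 scaled TPM in SKNAS libraries, against 0.352, 0.189 and 0.432 in KELLY libraries (3.66 ± 0.264, adjusted p 1.88e-05). The repressor MNT was lower (-1.08), a call lost without scaling and without SKNAS replicate 1, and the partner MAX (-0.07) and the paralogue MYCL (0.67) were not called. MYC in SKNAS remained far below MYCN in KELLY, with means of 16.3 and 1703 scaled TPM, both per transcript length.

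Of 12 tested genes near MYCN or further along 2p, 6 were lower in SKNAS and none higher, and 4 were lower without scaling. The antisense transcript MYCNOS was listed at 0 in SKNAS, against 184, 106.9 and 104 in KELLY libraries. MYCNOS overlaps MYCN on the opposite strand, and since no source used here states how strand was treated in counting, its reads may not have been told apart from those of MYCN. CYRIA was listed at 0 in SKNAS, against 17.5, 18.8 and 15.5 in KELLY libraries. DDX1, the neighbour most often amplified with MYCN, had 139.8, 130.4 and 125 in SKNAS libraries, against 174, 246 and 229 in KELLY libraries, and its difference of -0.70 missed the size for a call. ODC1, the first enzyme of polyamine synthesis and a MYC target further along the arm, had 191, 194 and 159 in SKNAS libraries, against 436, 498 and 488 in KELLY libraries (-1.39 ± 0.147). TRIB2, a pseudokinase, differed by -1.16 and GREB1 by -2.22. The ODC1 and TRIB2 calls were lost without scaling.

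Genes of ribosome biogenesis and other MYC targets were mostly not called. Of 29 tested, 7 were lower, 1 higher and 21 not called (median -0.35). Without scaling none was lower and 4 were higher, with a median of 0.29, so neither the count nor the direction of that list holds across scalings. NME1 (-1.52), FBL (-1.53), SRM (-1.37) and NPM1 (-1.26) were lower and POLR1B (1.501) higher, and all 4 that were lower lost the call without scaling. Ribosomal protein genes were lower in SKNAS at 25 of 32, with a median of -1.66, but with quantile normalization the median was -0.23 and the counts 7 lower and 1 higher.

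The LIN28 and let-7 axis, which holds RNA-binding proteins of embryonic growth, moved in both directions. LIN28B, the inhibitor of let-7 microRNA processing, averaged 0.0257 scaled TPM in SKNAS, against 50.6, 72.3 and 71.9 in KELLY libraries (-5.99 ± 0.197). LIN28A (-3.99), IGF2BP1 (-2.31), ARID3A (-2.03) and ARID3B (-1.10) were lower too, ARID3B not without scaling. HMGA2, a chromatin protein and let-7 target, had 43.9, 43.0 and 37.0 in SKNAS libraries and was listed at 0 in KELLY. IGF2BP2 had 44.1, 34.2 and 46.7 in SKNAS libraries, against 0.0470, 0.0851 and 0.257 in KELLY libraries (5.23 ± 0.192).

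Serine, glycine and amino acid genes were lower in SKNAS at 7 of 15, higher at 1 and not called at 7, and without scaling 4 were lower and 3 higher. SLC7A5, the large neutral amino acid transporter, had 7.09, 6.99 and 9.75 in SKNAS libraries, against 71.4, 69.8 and 74.9 in KELLY libraries (-3.04 ± 0.163, adjusted p 4.39e-06). The mitochondrial enzymes SHMT2 (-1.76), MTHFD1L (-1.81) and GLDC (-2.76) were lower. ASS1, which makes argininosuccinate, had 641, 523 and 546 in SKNAS libraries, against 63.0, 44.4 and 52.7 in KELLY libraries (3.40 ± 0.17).

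The E-box CACGTG, the site that MYC and MYCN bind with MAX, was searched on both strands in the 250 bases before the RefSeq start of the gene. It was found in 6.17% of 1960 promoters of genes higher in SKNAS, 9.70% of 1712 promoters of genes lower and 8.90% of the 11189 tested genes with a promoter. The share among genes lower in SKNAS was thus close to that of all tested genes. The promoters of SRM and SLC7A5, both lower in SKNAS, are shown because each holds a match (RefSeq, GRCh38.p14, 5′ to 3′ on the gene's strand, the match in capitals), at chr1:11060019-11060268 and chr16:87869508-87869757, both on the minus strand.
SRM: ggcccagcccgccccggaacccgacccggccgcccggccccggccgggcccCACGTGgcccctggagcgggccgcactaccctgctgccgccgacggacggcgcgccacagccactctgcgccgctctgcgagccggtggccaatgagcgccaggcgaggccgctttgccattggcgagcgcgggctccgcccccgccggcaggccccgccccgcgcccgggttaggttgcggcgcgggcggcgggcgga
SLC7A5: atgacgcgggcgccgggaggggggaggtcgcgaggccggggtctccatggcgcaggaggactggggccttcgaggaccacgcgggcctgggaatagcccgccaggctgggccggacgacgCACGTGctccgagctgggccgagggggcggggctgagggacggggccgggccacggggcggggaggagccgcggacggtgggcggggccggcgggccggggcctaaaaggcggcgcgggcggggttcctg
The AP-1 motif TGANTCA was found in 5.31% of promoters of genes higher in SKNAS, 3.33% of those lower and 3.70% of all, and the TEAD motif CATTCC in 10.4%, 8.70% and 9.21%. A match is a description of letters, not of binding.

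Interferon-response genes were higher in SKNAS almost throughout. Of 27 tested, 22 (81.5%) were higher, none lower and 5 not called, with a median difference of 2.11. The count of higher members was 22 without KELLY replicate 1, 24 without scaling, 20 with FPKM and 18 at a minimum TPM of 5. IFITM3, a membrane protein that restricts virus entry, had 148, 151 and 129 scaled TPM in SKNAS libraries, against 0.525, 1.21 and 0.0518 in KELLY libraries (6.55 ± 0.268, adjusted p 1.59e-06). IFI44 had 114.5, 114.5 and 99.7 in SKNAS libraries, against 0.132, 0.188 and 0 in KELLY libraries (6.64 ± 0.164). The helicase DDX60 had 7.69, 7.03 and 5.92 in SKNAS libraries, against 0.0361, 0.0713 and 0 in KELLY libraries (2.92 ± 0.163). All 3 were near 0 in each KELLY library.

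IFITM1 (3.76), the deISGylase USP18 (3.11) and the RNA sensor IFIH1 (3.03) were higher, and the transcription factor STAT2 (1.504) was higher by less. IFITM1, IFITM2 and IFITM3 are near-identical neighbours on chromosome 11, between which reads may have been split. OAS1, ISG20, IRF7, IFI27 and IRF9 were not called. Of 7 tested nucleic acid sensors, 5 were higher, among them IFI16 and STING1. The sensors RIGI and IFIH1 are also in the interferon-response list, so this count is not separate from that of the list. STING1, the adaptor of the DNA-sensing pathway, had 10.8, 11.1 and 8.80 in SKNAS libraries, against 1.11, 1.27 and 0.247 in KELLY libraries (2.62 ± 0.259).

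MHC class I and immunoproteasome genes followed the same direction, with 11 of 15 higher, 1 lower and 3 not called (median 1.60). PSMB8, an immunoproteasome subunit, had 47.5, 47.4 and 43.5 in SKNAS libraries and was listed at 0 in KELLY (adjusted p 7.31e-07), and PSMB9 had 18.2, 20.03 and 15.02 in SKNAS libraries and was listed at 0 in KELLY. TAP1, a subunit of the peptide transporter, had 12.3, 12.8 and 10.7 in SKNAS libraries, against 0, 0.0359 and 0 in KELLY libraries (3.67 ± 0.161). HLA-E had 18.4, 21.6 and 21.1 in SKNAS libraries, against 0.245, 0.529 and 0 in KELLY libraries (4.10 ± 0.207). Beta-2 microglobulin, B2M, the shared light chain, had 278, 303 and 243 in SKNAS libraries, against 112.04, 117.4 and 44.0 in KELLY libraries (1.70 ± 0.354).

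The heavy chain HLA-B had 8.89, 13.3 and 7.43 in SKNAS libraries, against 0, 0.360 and 0.947 in KELLY libraries. HLA genes are highly similar and polymorphic, and reads may have been split or lost among them. PSMB10, the remaining immunoproteasome subunit, was lower in SKNAS (-1.86 ± 0.306).

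A motif was common in the promoters of these genes. The core of the interferon-stimulated response element, GAAA and GAAA with any 2 bases between, on either strand, was searched in the same 250-base windows, a motif added after the interferon genes were seen to differ. It was found in 16 of 22 interferon-response promoters (72.7%), 5 of 12 MHC class I promoters (41.7%) and 2.17% of all tested genes with a promoter. Among genes called higher in SKNAS it was found in 3.47%, and among genes lower in 1.58%. The genes called higher include members of the interferon and MHC lists, so the 3.47% is not separate from the shares of those lists. IFI27, ISG20 and PSMB10 hold a match and were not called higher, while ERAP1, ERAP2, HLA-B, IFI35, MX1, PSMB8, PSMB9, RIGI and STAT2 hold none and were. The windows of 4 genes that were higher in SKNAS are shown, with matches in capitals (RefSeq, GRCh38.p14, 5′ to 3′): IFI44 at chr1:78649539-78649788 on the plus strand, and IFITM3 at chr11:320861-321110, DDX60 at chr4:168318753-168319002 and TAP1 at chr6:32853705-32853954 on the minus strand.
IFI44: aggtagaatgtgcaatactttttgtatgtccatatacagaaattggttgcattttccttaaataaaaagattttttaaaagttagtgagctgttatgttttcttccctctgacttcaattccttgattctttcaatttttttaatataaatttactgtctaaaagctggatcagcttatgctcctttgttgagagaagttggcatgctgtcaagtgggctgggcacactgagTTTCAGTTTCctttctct
IFITM3: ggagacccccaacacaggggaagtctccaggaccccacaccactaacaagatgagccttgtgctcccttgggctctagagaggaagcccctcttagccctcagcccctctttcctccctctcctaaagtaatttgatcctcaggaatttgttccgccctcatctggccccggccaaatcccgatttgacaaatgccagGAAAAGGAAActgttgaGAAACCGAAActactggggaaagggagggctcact
DDX60: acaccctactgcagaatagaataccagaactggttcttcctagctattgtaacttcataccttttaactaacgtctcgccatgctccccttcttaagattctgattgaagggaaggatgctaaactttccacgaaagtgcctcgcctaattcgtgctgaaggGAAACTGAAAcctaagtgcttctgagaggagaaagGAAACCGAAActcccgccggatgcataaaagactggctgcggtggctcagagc
TAP1: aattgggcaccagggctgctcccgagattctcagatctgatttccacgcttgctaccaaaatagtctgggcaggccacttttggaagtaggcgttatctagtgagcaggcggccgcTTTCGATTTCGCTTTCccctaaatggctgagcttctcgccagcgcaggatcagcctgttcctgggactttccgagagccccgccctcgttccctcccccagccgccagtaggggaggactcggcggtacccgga
IFITM3 and DDX60 each hold 2 separate matches, and TAP1 holds 2 that overlap.

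**Figure D4:**
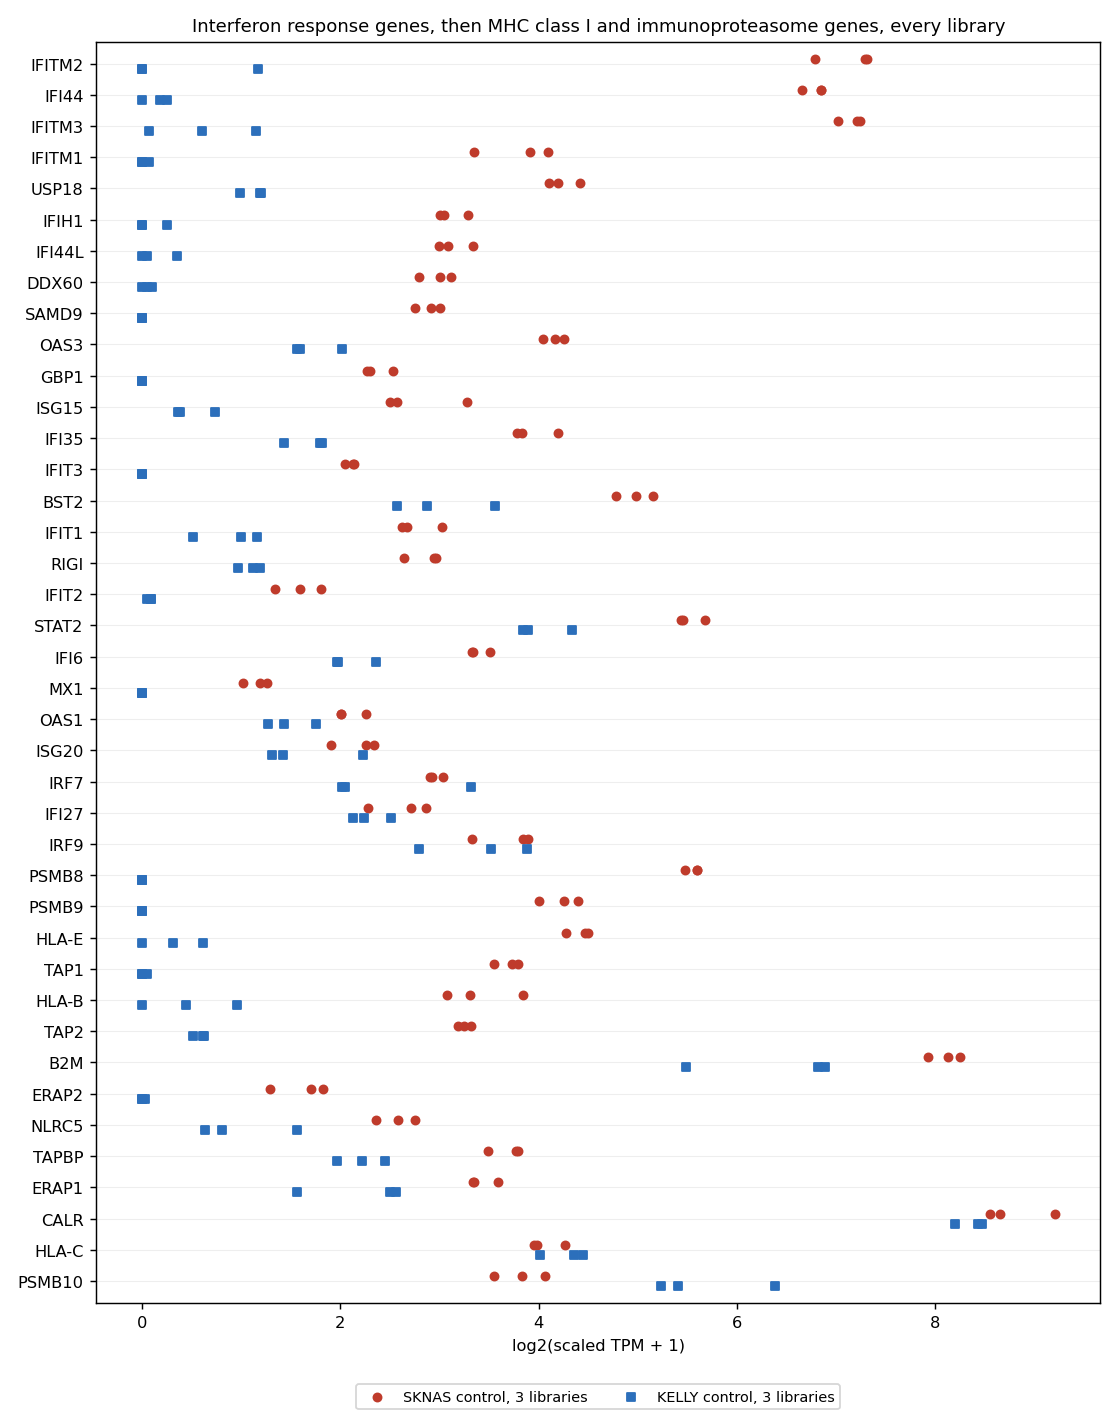
Level of tested interferon-response, MHC class I and immunoproteasome genes as log2(scaled TPM + 1), with 1 point per library (red circles SKNAS control, blue squares KELLY control), each set ordered by the difference. Most KELLY libraries lie near 0 in the upper rows of each set, and HLA-C overlaps between the lines.

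Of the death receptor and apoptosis genes, 5 of 22 tested (22.7%) were higher, close to the 17.7% of all tested genes, 2 were lower and 15 not called. Without scaling 8 were higher and 2 lower. CASP8, the initiator caspase that is often silenced in neuroblastoma, had 23.02, 24.9 and 19.3 scaled TPM in SKNAS libraries, against 0.300, 0.371 and 0.372 in KELLY libraries (4.11 ± 0.174, adjusted p 1.81e-06). Its inhibitor and neighbour CFLAR was higher too (2.04). BID (-2.30), which caspase 8 cleaves, and the pro-apoptotic BBC3 (-2.64) were lower.

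Developmental pathways differed by member rather than by list. NOTCH2 had 18.8, 19.6 and 18.1 in SKNAS libraries, against 0.0191, 0.246 and 0.0386 in KELLY libraries, while the ligand JAG2 had 0.0684, 0.0594 and 0.161 in SKNAS libraries, against 11.5, 10.1 and 10.4 in KELLY libraries. In the Wnt pathway, with 9 of 23 higher, 6 lower (2 at a minimum TPM of 5) and 8 not called, the inhibitor DKK2 had 53.9, 45.2 and 42.8 in SKNAS libraries, against 0, 0 and 0.210 in KELLY libraries, and the related DKK1 had 13.6, 13.8 and 11.7 in SKNAS libraries, against 53.8, 73.9 and 86.1 in KELLY libraries. The stem cell receptor LGR5 was higher (3.36) and the transcription factor LEF1 lower (-3.13). In the retinoic acid pathway, the synthesis enzyme ALDH1A3 (3.60) and the binding protein CRABP2 (2.81) were higher, and the retinol uptake receptor STRA6 (-3.03) was lower.

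Of 39 HOX genes, 26 did not pass the filter on low values. Of the 13 tested, 7 were lower, 1 higher and 5 not called, while without scaling 7 were lower and 4 higher and with FPKM 5 were lower and 1 higher. HOXD13, the most posterior gene of its cluster, had 0.237, 0.155 and 0.133 in SKNAS libraries, against 29.1, 43.0 and 32.6 in KELLY libraries (-4.91 ± 0.197), and HOXD8 in the same cluster had 40.7, 47.3 and 34.4 in SKNAS libraries, against 9.21, 9.69 and 7.07 in KELLY libraries (2.11 ± 0.185). These members of 1 cluster thus differed in opposite directions, and HOXC8 (-2.53) and HOXC9 (-2.17) were lower. Hypoxia and glycolysis genes were lower at 11 of 28 and higher at 3, but without scaling 6 were lower and 6 higher. The glucose transporter SLC2A1 had 16.4, 16.3 and 14.8 in SKNAS libraries, against 165, 163 and 149 in KELLY libraries (-3.25 ± 0.126), and NDRG1 was lower as well (-4.63). UBB, one of the polyubiquitin genes, had 693, 530.5 and 549 in SKNAS libraries, against 14.2, 9.40 and 32.7 in KELLY libraries (5.07 ± 0.388).

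The differences were not spread evenly over the genome. Chromosome 22 had 39.0% of its 441 tested genes lower in SKNAS and 7.26% higher, and chromosome 18 had 39.9% of its 243 tested genes higher and 9.88% lower. Chromosomes 4 (36.0%) and 8 (35.2%) also had more genes higher than the 17.7% of all tested genes, and chromosomes 3 and 17 (26.1% each) more lower than 16.9%. In windows of 20 Mb (GRCh37) with at least 20 tested genes, 156 in all, the median difference ran between -1.42 and 1.35. The lowest was chromosome 22 from 40 to 60 Mb, where 94 of 126 genes (74.6%) were lower and 2 higher. The highest was chromosome 2 from 140 to 160 Mb, where 25 of 31 genes (80.6%) were higher and none lower. Of 34 windows with a median above 0.5, 32 were also above 0.5 between the Hmx1 libraries of the same lines, and of 16 below -0.5, 9 were also below. The chromosome shares and window counts were not repeated under another scaling. Without scaling the median difference of all tested genes was 0.62, above the 0.5 cutoff, so the number of windows beyond it depends on the scaling. DNA copy number was not measured here.

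**Figure D5:**
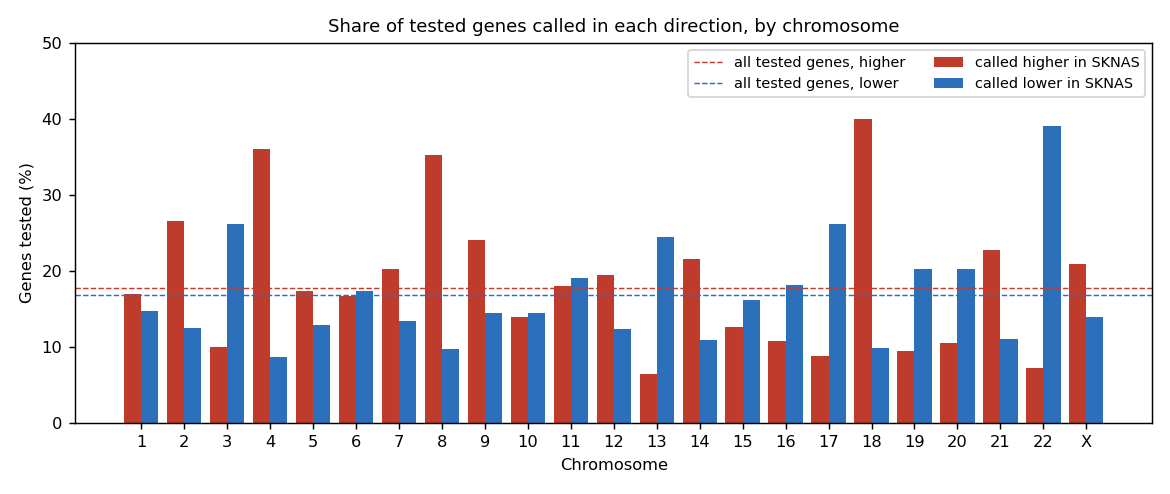
Share of tested genes called higher (red) and lower (blue) in SKNAS than in KELLY, in percent, for chromosomes 1 to 22 and X, with dashed lines at the shares of all tested genes (17.7% and 16.9%). Chromosomes 4, 8 and 18 stand above the dashed line for higher calls, and chromosome 22 reaches 39.0% for lower calls.

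The Hmx1 arms of the same lines gave a second set of 6 libraries that shares none with the first. Between SKNAS Hmx1 and KELLY Hmx1, 6029 of 16778 genes (35.9%) were called by the same rule. Of the 5727 genes called between controls, 5481 were tested there, 5406 had the same sign and 4305 were called in the same direction, which is 75.2% of the calls between controls and 71.4% of those between Hmx1 arms. Called in opposite directions were 2, LRRC55 (log2 difference -1.78 between controls and 1.31 between Hmx1 arms) and MAGEA3 (-2.47 and 1.40), a gene with near-identical copies. MYCN differed by -10.67 between controls and -10.71 between Hmx1 arms, GATA2 by -5.66 and -6.10, and IFI44 by 6.64 and 6.59. In a fit of all 12 libraries, the difference between the lines itself differed between the arms at 695 of 16547 genes (4.2%, adjusted p under 0.05). Among the genes named above they include MYC, CCND1, TH and HMGA2.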

How the data were processed

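Stranded libraries of polyadenylated RNA were sequenced in pairs on a HiSeq instrument, per the labels' protocols. The submitters' processing notes name bcl2fastq, STAR and FastQC and the builds GRCh37 and GRCh38.p12 without roles. The coordinates fit GRCh37. Not given in the sources used here were the quantifier, annotation, use of strand and handling of mouse reads. The authors deposited 1 table per library with coverage, FPKM and TPM per gene. TPM values were used as deposited, deposited FPKM values as an alternative, and the coverage not at all. TPM sums to the same total in each library, so counting intervals cannot be had and depth is unknown.

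Symbols were matched to 52526 of 63677 gene IDs. TPM was divided by median-ratio factors, log2-transformed after adding 1, filtered at a TPM of 1 in 3 of 6 libraries and fitted with limma 3.58.1 (R 4.3.3, moderated with a mean-variance trend), tested on simulated data. Adjusted p-values are Benjamini-Hochberg over all tested genes.

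The text names the 12 protein-coding genes with the largest difference in each direction (called, not overlapping, higher group at a mean of at least 10 scaled TPM), up to 4 called members per list and direction, and any tested member of the noradrenergic, catecholamine, mesenchymal factor and MYC family lists. Other uncalled genes and host markers named, and called list members beyond those 4, were chosen after their values were seen. Some list members are counted but not reported here by name. The libraries and gene lists were chosen with earlier results of these data known. Alternatives covered scaling, pseudocount, filter, FPKM, library weights, all 18 libraries in the fit, and leaving out each library.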

Additional observations from a re-analysis of the deposited data

Results flagged for a closer look

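For 39 of the called genes named in the report or below, the difference between SKNAS and KELLY itself differed between the Hmx1 and the control arms (limma interaction over 12 libraries, adjusted p under 0.05). The named genes were chosen for their differences in the same control libraries, or, for LRRC55 and MAGEA3, for their opposite calls, so their number is not set against that of all tested genes. Each value below is the difference between the lines in the Hmx1 arms minus that in the control arms, on the log2(scaled TPM + 1) scale. Where a gene is listed at 0 in a line, its value depends on the added 1.

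Among genes higher in SKNAS controls, the difference was smaller in the Hmx1 arms for MYOC (-2.99), HMGA2 (-2.67), COL12A1 (-2.34), PPY (-2.18), DKK2 (-2.07), BMP5 (-3.01), LAMA2 (-2.28), MAGEC1 (-2.20), PSMB9 (-1.63), TAC1 (-1.47), IGF2BP2 (-1.30), SIX4 (-1.23), NOTCH2 (-1.13), PSMB8 (-1.12), LUM (-0.94), SNAI2 (-0.88) and CASP8 (-0.77). MYC belongs with them (-1.79, adjusted p 0.00572), with a difference between the lines of 1.88 in the Hmx1 arms and 3.66 in the control arms. It was larger for DPYSL3 (0.91), IER3 (1.09), PTPRC (1.33), ABCB1 (1.80) and UBB (1.95).

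Among genes lower in SKNAS controls, the gap was wider in the Hmx1 arms for TFAP2B (-2.18), IGF2BP1 (-1.499), TRIB2 (-0.93), DLK1 (-1.01), LMO1 (-0.91) and SOX9 (-0.89), and for TH (-1.78, adjusted p 0.0152), at -9.43 in the Hmx1 arms and -7.64 in the control arms. It was narrower for ALK (1.25), NEFM (1.495), TGFBI (1.53), GLDC (2.06), MAGEA10 (2.63) and MAGEA12 (5.47), for LRRC55 (3.08) and MAGEA3 (3.87), whose difference had the other sign in the Hmx1 arms, and for CCND1 (2.73, adjusted p 1.81e-05), at -1.81 in the Hmx1 arms and -4.54 in the control arms.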

How the results depend on the processing

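Without scaling, 5546 genes were higher and 1666 lower in SKNAS (median of all genes 0.62). With TPM rescaled without mitochondrial transcripts, and no median-ratio factors, 4966 were higher (median 0.50). With a minimum TPM of 5 in 3 libraries 1789 were lower, and without scaling the interaction passed at 449 genes. Leaving out 1 library at a time gave 5473 to 6093 calls, 2839 to 3081 higher and 2603 to 3012 lower. Of 394 called list members and named genes checked, 273 kept the call in all 17 alternatives and 7 changed sign, all 7 with quantile normalization: NPM1 (0.0851), LDHB (0.0345), MT-ND5 (0.0271), RPL19 (0.27), RPL27 (0.44), RPL30 (0.36) and RPS27 (0.0776). The cause was not tested. Others of the 394 lost the call in at least 1, and some of the 356 not called gained one. In a fit with library weights KELLY replicate 1 had a weight of 0.305, against 0.866 to 1.5 for the other 5.

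No paired analysis was possible because replicate numbers follow the accessions only and tie no SKNAS library to a KELLY library. Depth, and thus what it limits, is unknown. With 1 cell line per group and no record of separate mice, the spread is that between libraries of 1 line.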

Other observations

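Adhesion genes differed in most members tested. The filter left 17 of 22 cadherins and protocadherins. Of these, 8 were higher in SKNAS, 8 lower and 1 not called, while at a minimum TPM of 5 the counts were 6 and 3. Members near 0 in 1 line, such as CDH4 and CDH13, passed the filter only through the other line, so a call was likely for them. N-cadherin, CDH2, had 236, 226 and 222 scaled TPM in SKNAS libraries, against 34.0, 46.9 and 42.1 in KELLY libraries (2.46 ± 0.151, SE), and CDH13, a cadherin without a cytoplasmic tail, had 0.0198, 0.0872 and 0.0209 in SKNAS libraries, against 30.1, 19.4 and 27.7 in KELLY libraries (-4.66 ± 0.207). CDH4 was listed at 0 in SKNAS, against 10.3, 7.32 and 7.15 in KELLY libraries. Of 21 integrins and laminins, 8 were higher, 5 lower and 8 not called. The laminin chain LAMA1 had 1.70, 1.23 and 0.635 in SKNAS libraries, against 44.8, 25.8 and 32.1 in KELLY libraries, and LAMA2 had 8.40, 7.23 and 9.71 in SKNAS libraries, against 0.0229, 0.0620 and 0 in KELLY libraries, so the 2 alpha chains differed in opposite directions (-4.002 and 3.19).

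Of 17 tested MAGE and related cancer-testis genes, which are silent in most adult tissues outside the testis, 8 were lower, 3 higher (5 without scaling) and 6 not called. MAGEC1 had 34.9, 37.3 and 33.7 scaled TPM in SKNAS libraries, against 0.350, 0.429 and 0.334 in KELLY libraries, and MAGEA11 had 65.2, 71.3 and 60.8 in SKNAS libraries, against 0, 0.409 and 0 in KELLY libraries. MAGEA12 had 0.801, 0.491 and 0.428 in SKNAS libraries, against 87.9, 103 and 87.2 in KELLY libraries, but MAGEA genes have near-identical copies between which reads may have been split. The drug efflux pump ABCB1 had 7.69, 7.26 and 7.92 in SKNAS libraries, against 0.0474, 0.0232 and 0 in KELLY libraries (3.07 ± 0.149). The growth factor pleiotrophin, PTN, had 84.4, 84.1 and 71.3 in SKNAS libraries, against 5.52, 7.10 and 4.62 in KELLY libraries (3.60 ± 0.179), and the ligand BMP5 had 20.1, 21.1 and 16.1 in SKNAS libraries and was listed at 0 in KELLY. DLK1, a membrane protein of immature chromaffin cells, had 289, 273 and 318 in SKNAS libraries, against 2254, 1749.6 and 1761 in KELLY libraries (-2.70 ± 0.174). Of 38 cell cycle genes, 9 were higher (23.7%), 5 lower and 24 not called, and 19 were higher and 3 lower without scaling. CDKN1C, an inhibitor of cyclin-dependent kinases, had 1.40, 1.87 and 2.78 in SKNAS libraries, against 55.7, 20.1 and 21.6 in KELLY libraries (-3.34 ± 0.389).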
